A study of Mus musculus with 3 samples.

Results

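Conventional CD4 T cells made up 415 of the 14302 cell barcodes kept from 3 single-cell RNA libraries of mouse pancreas, with 135 in the PBS library, 140 in the 3-day WGP library and 140 in the 7-day WGP library. They were chosen by measured transcripts: a member had at least 2 UMIs (unique molecular identifiers, each standing for 1 captured transcript) of Cd3e, Cd3d and Cd3g together, at least 1 UMI of Cd4, and none of Cd8a, Cd8b1, Foxp3, Trdc, Cd79a or Csf1r. The T cell receptor complex genes therefore mark T cells, Cd4 marks the helper lineage, and the genes required to be at 0 mark CD8 T cells, regulatory T cells, γδ T cells, B cells and macrophages. Levels of these 10 genes in the members follow from the choice and are given only as a description.

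Live CD45+ cells were sorted from the pancreas of wild-type C57BL/6J mice of both sexes, 6 to 8 weeks old at treatment. WGP, whole glucan particles, is a particulate β-glucan of the yeast cell wall. One group was given sterile PBS, and the other groups were given a single intraperitoneal dose of 1 mg WGP either 3 days or 7 days before the pancreas was taken. Each group was 1 library, made with the 10x 3' chemistry, and the labels state neither the number nor the sex of the mice in it, so no test across animals was possible and each comparison is between 3 libraries.

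Conventional CD4 T cells recognise peptides on MHC class II molecules through their T cell receptor, with CD4 as coreceptor. Naive cells circulate between blood and lymphoid organs, whereas effector and memory cells enter tissues, where they release cytokines such as interferon gamma, give help through CD40 ligand, and respond in turn to cytokines from other cells. Pancreatic CD4 T cells are best known from autoimmune diabetes, pancreatitis and pancreatic cancer.

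Levels are given in CPM, the UMIs of a gene per 1000000 UMIs summed over the members of a library. Log2 ratios are to PBS, with 10 CPM added to both levels, and a gene was counted as past 2-fold only if it reached 50 CPM in at least 1 of the libraries compared. All intervals are 95% intervals and cover counting error only. Counts of listed genes above or below PBS, also by interval, are given without the same share over all genes. Over all genes that reached 50 CPM in this way, the median log2 ratio was -0.04 at day 3 and 0.05 at day 7. Sets of 3 values stand for PBS, then 3-day WGP, then 7-day WGP. The members had medians of 4812, 6000 and 5678.5 UMIs, with medians of 1683, 1885 and 1920 genes detected. Their UMIs summed to 835486, 895209 and 1034471, and the 3 libraries held 48219246 to 56849043 UMIs in all. Mitochondrial UMIs were 4.26 to 4.84% of the members' total. No barcode was a member in more than 1 library, although 1 to 9 kept barcodes were shared between pairs of libraries. Free RNA, estimated from acinar digestive enzyme transcripts, was 0.861, 1.73 and 1.34% of the members' UMIs.

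The libraries held cells of female and male mice in different proportions. Xist cells are cells with Xist and no Y-linked UMI, Y cells are cells with a UMI of Ddx3y, Uty, Kdm5d or Eif2s3y and no Xist, and these sets necessarily came from different animals. Xist cells were 38.8, 9.82 and 28.9% of kept barcodes, and Y cells were 33.1, 51.4 and 44.7%. Among the members there were 54, 46 and 37 Xist cells, 42, 40 and 63 Y cells, and 39, 54 and 39 with neither, while 1 member of the 7-day library had both. List medians and the genes described at most length are therefore also given within Xist cells and within Y cells. Within a single library, the share of genes that differed by 2-fold or more between Y cells and Xist cells was 10.2% of 3247 genes in PBS, 9.71% of 3296 genes in 3-day WGP and 14.3% of 3287 genes in 7-day WGP.

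The label held for genes that the rule did not use. Trac, the constant region of the T cell receptor α chain, had a UMI in 114, 127 and 136 members (84.4, 90.7 and 97.1%). Cd40lg, which encodes CD40 ligand and is made mainly by helper T cells, had a UMI in 36, 44 and 60 members (26.7, 31.4 and 42.9%) and stood at 61.0, 73.7 and 108 CPM, against 6.25, 6.07 and 3.24 CPM in the CD8 T cells of the same libraries. At an equal depth of 1000 UMIs per cell, Trac was detected in 45.9, 55.0 and 50.7% of members and in 0.0571, 0.205 and 0% of B cells, and Cd40lg in 7.41, 5.71 and 13.6% of members and in none of the B cells.

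At the edge of the rule, 70, 68 and 65 members (51.9, 48.6 and 46.4%) had exactly 1 Cd4 UMI, and 4, 2 and 2 had exactly 2 UMIs of the Cd3 genes. Just outside it were 302, 366 and 196 barcodes that met every other criterion but had no Cd4 UMI, with Trac at 417, 441 and 444 CPM (725, 761 and 712 CPM in members) and Cd40lg at 37.1, 42.4 and 31.4 CPM. Only 1, 0 and 2 barcodes fell outside because they had 1 UMI of the Cd3 genes.

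Some members also carried transcripts of antigen-presenting cells. There were 5, 7 and 7 members that had 10 or more UMIs of H2-Aa, H2-Ab1, H2-Eb1 and Cst3, and they held 96.6, 96.5 and 92.2% of all UMIs of these genes among the members, with medians of 21560, 12409 and 21914 UMIs per cell against 4742.5, 5778 and 5643 in the others. Trac was detected in 4, 5 and 7 of them, and 2, 1 and 0 members had 10 or more hemoglobin UMIs. Summed B cell marker levels, a list that includes class II genes, were 5254, 5160 and 3110 CPM with these members and 661, 744 and 467 CPM without them. Dendritic cell markers were at 99.3, 88.2 and 120 CPM with them and at 4.19, 21.3 and 2.32 CPM without them, and macrophage and monocyte markers at 1296, 2356 and 1059 CPM with them and at 289, 475 and 409 CPM without them. Pooled values without these members are given beside the results below that turn on them. Transcripts of Cst3 fell unevenly on Xist cells and Y cells, at 1418 and 181 CPM in PBS. They were at 80.1 and 2991 CPM in 3-day WGP and at 124 and 1070 CPM in 7-day WGP, and H2-Ab1 had the same order. Ratios within Xist cells or Y cells include these members unless stated otherwise, and their part in those ratios was not tested.

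Conventional CD4 T cells were 2.57% of kept barcodes in PBS (interval 2.16 to 3.04), 2.87% in 3-day WGP (2.42 to 3.38) and 3.35% in 7-day WGP (2.83 to 3.95). The log2 ratio of shares was 0.16 at day 3 (interval -0.18 to 0.49) and 0.38 at day 7 (0.05 to 0.72). The size and direction of this difference depended on the denominator, on depth and on the Cd79a criterion. When each barcode was thinned to 1000 UMIs before the rule was applied, 40, 42 and 33 members were left (0.762, 0.861 and 0.791%). The log2 ratio was then 0.18 at day 3 (-0.45 to 0.80) and 0.05 at day 7 (-0.61 to 0.72). Among Xist cells the share was 2.65, 9.60 and 3.06%, a log2 ratio of 1.86 at day 3 (1.31 to 2.41) and 0.21 at day 7 (-0.38 to 0.80), and among Y cells it was 2.42, 1.59 and 3.38%, a log2 ratio of -0.60 at day 3 (-1.22 to 0.02) and 0.48 at day 7 (-0.07 to 1.04). Without the Cd79a criterion, the share was 4.48, 3.73 and 3.59%, which turned the ratios to -0.26 and -0.32, whereas allowing 1 UMI of Cd79a left them at 0.14 and 0.36. That criterion removed the most cells from PBS, where B cells were 33.3% of kept barcodes, against 19.98 and 12.5% in the WGP libraries, and whether T cells carrying B cell RNA account for the difference was not tested.

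**Figure D1:**
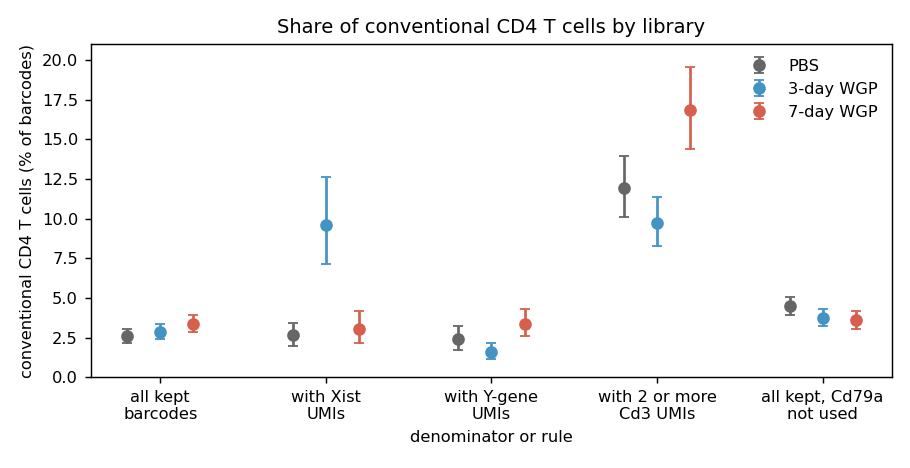
Conventional CD4 T cells as a percent of barcodes in each library (y axis) under 5 denominators or rules (x axis), with points for the share and bars for 95% exact binomial intervals; Xist and Y-gene UMIs mark cells of female and male mice. The share of all kept barcodes was 2.57, 2.87 and 3.35%, the share among cells with Xist was highest at day 3 (9.60%), and the order turned when the Cd79a criterion was left out.

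Set beside the other T cells, the members were 11.9, 9.74 and 16.8% of all barcodes with at least 2 UMIs of the Cd3 genes. CD8 T cells, chosen by the matching rule, numbered 108, 187 and 212 (2.06, 3.83 and 5.08% of kept barcodes), so that members were 55.6, 42.8 and 39.8% of the members and CD8 T cells together. Regulatory T cells, which met the same rule but with Foxp3, numbered 6, 15 and 35. They were 4.26% (interval 1.58 to 9.03), 9.68% (5.52 to 15.5) and 20% (14.3 to 26.7) of the regulatory and conventional CD4 T cells together.

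The members were a mixture of naive-like and effector-like cells in each library. After each cell was thinned to 1000 UMIs, UMIs were summed over a naive and central memory list (Ccr7, Lef1, Tcf7, Klf2, S1pr1, Il7r and others) and over an effector and memory list (Cd44, S100a4, S100a6, Lgals1, Vim, Ccl5, Cxcr6 and others). Effector UMIs outnumbered naive UMIs in 79, 74 and 91 members (58.5, 52.9 and 65.0%), naive UMIs outnumbered effector UMIs in 50, 58 and 45 members (37.0, 41.4 and 32.1%), and 6, 8 and 4 members had equal numbers. The border was not sharp: 115, 118 and 107 members had UMIs of both lists, and 21, 18 and 15 members lay within 1 UMI of equality.

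The balance of naive and effector members turned with the source of the cells. In PBS, 40 of 54 Xist cells (74.1%) had more effector UMIs, against 18 of 42 Y cells (42.9%). In 3-day WGP it was the reverse, with 14 of 46 Xist cells (30.4%) and 28 of 40 Y cells (70.0%). In 7-day WGP the effector-rich share was 13 of 37 Xist cells (35.1%) and 54 of 63 Y cells (85.7%). Members with neither Xist nor Y transcripts lay between, at 53.8, 59.3 and 59.0%. The Xist cells had medians of 7661.5, 7101.5 and 5489 UMIs before thinning and the Y cells 3246, 5697.5 and 5984. Because each library holds an unstated number of mice, differences between mice and differences between treatments cannot be told apart.

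**Figure D2:**
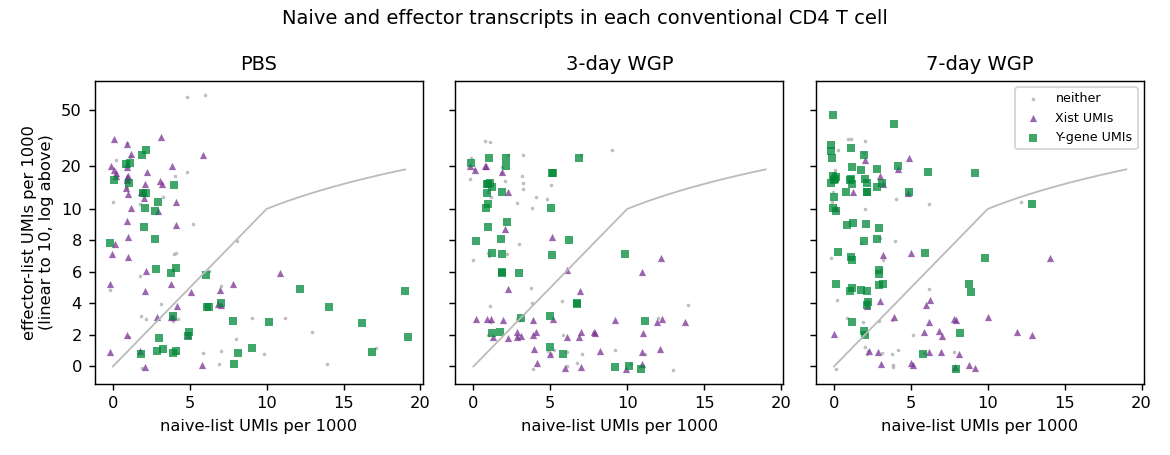
Naive-list UMIs per 1000 UMIs (x axis) against effector-list UMIs per 1000 UMIs (y axis, linear to 10 and logarithmic above) for each member of the 3 libraries, with a small random offset; triangles are Xist cells, squares are Y cells, dots have neither, and the grey line marks equal numbers (the member with both is not drawn). Xist cells lie mostly above the line in PBS (40 of 54) and mostly below it in 3-day WGP (30 of 46) and 7-day WGP (24 of 37), and Y cells do the opposite.

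The T cell receptor complex and its proximal kinases, the core signalling machinery of these cells, differed little in their list median. All 22 listed genes, of which 3 are the Cd3 genes of the rule, passed the level limit, with a median log2 ratio of 0.01 at day 3 and 0.08 at day 7. None was past 2-fold at day 3 or day 7, which is near the share over all genes. Of all genes, 0.565% were past 2-fold higher and 0.598% lower at day 3, and 1.97% and 0.419% at day 7. The lowest ratios among them at day 7 included Cd247, the CD3 ζ chain, at 261, 174 and 141 CPM (log2 ratio -0.56 at day 3 and -0.84 at day 7). In all members its level was below PBS in both WGP libraries, by less than 2-fold. At day 7 its ratio was -0.64 in Xist cells and -1.06 in Y cells.

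Naive and central memory genes differed in opposite directions in Xist cells and Y cells. The list median was 0.50 at day 3 (1.05 in Xist cells and -0.52 in Y cells) and -0.32 at day 7 (0.85 and -1.43). Igfbp4, which encodes an insulin-like growth factor binding protein abundant in naive CD4 T cells, stood at 105, 347 and 114 CPM, higher at day 3 by a log2 ratio of 1.63 (interval 1.31 to 1.959), yet its ratio was 2.65 in Xist cells and -0.30 in Y cells. At day 7 the same gene was at 2.20 in Xist cells and -4.06 in Y cells. Lef1, a transcription factor of naive T cells, stood at 239, 354 and 180 CPM, and Ccr7, the receptor that guides cells into lymph nodes, at 109, 181 and 84.1 CPM. Both were highest at day 3 in the pooled members, and at day 7 their ratios were 1.15 and 1.45 in Xist cells and -1.88 and -1.94 in Y cells. Klf2, which maintains S1pr1, was at 734, 1087 and 546 CPM, and S1pr1, the receptor for exit from tissue, at 162, 236 and 139 CPM. Satb1, a chromatin organiser, was at 236, 380 and 369 CPM. Dapl1 was at 183, 143 and 54.1 CPM, past 2-fold lower at day 7 (log2 ratio -1.59), with 0.58 in Xist cells.

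Effector and memory genes showed the mirror image. The list median was -0.24 at day 3 (-1.02 in Xist cells and 0.77 in Y cells) and 0.00 at day 7 (-1.11 and 0.83). In all members without those rich in class II or hemoglobin it was -0.16 at day 3 and 0.04 at day 7, over 17 genes. The values within Xist cells and Y cells include the members rich in class II or hemoglobin. S100a4, a calcium-binding protein of effector T cells, was at 800, 439 and 735 CPM, with log2 ratios at day 7 of -2.48 in Xist cells and 0.81 in Y cells. At day 3, 15 of the 18 genes were above 0 in Y cells and none in Xist cells. Ccl5, a chemokine stored by cytotoxic and memory T cells, was one of those lower in both. It stood at 1441, 702 and 885 CPM, was detected in 47, 48 and 59 members, and was lower at day 3 by a log2 ratio of -1.03 in all members, -2.58 in Xist cells and -1.10 in Y cells.

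**Figure D3:**
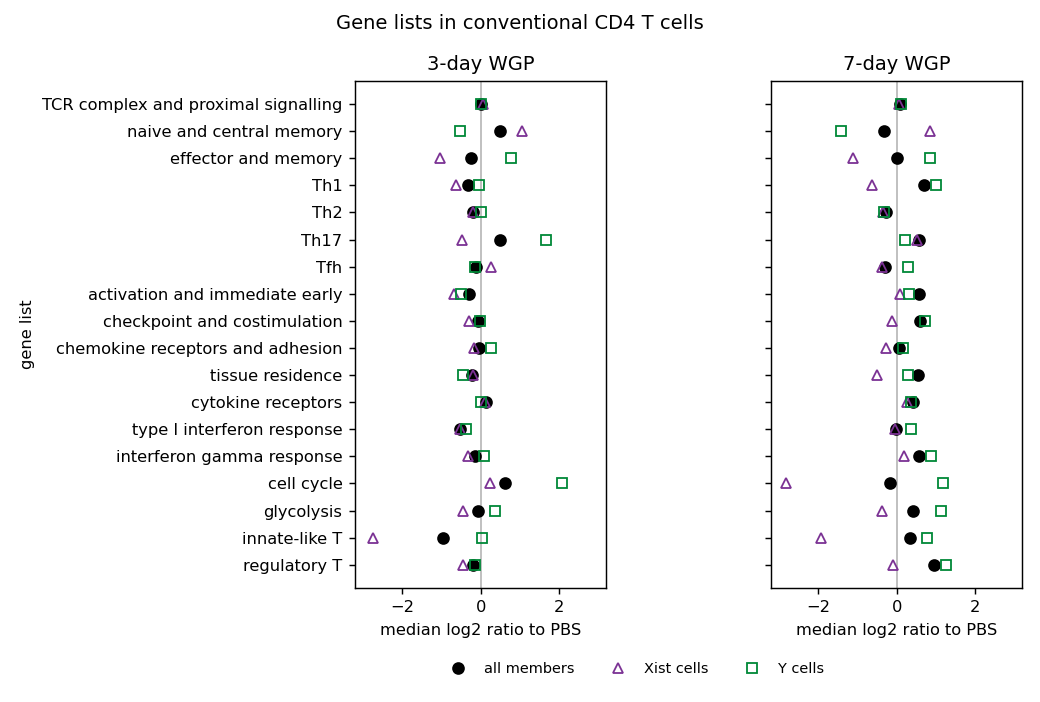
Median log2 ratio to PBS (x axis) of each gene list (y axis) in conventional CD4 T cells for 3-day WGP (left) and 7-day WGP (right); filled dots are all members, open triangles are Xist cells and open squares are Y cells. The naive list lies right of 0 in Xist cells and left of 0 in Y cells at both times, the effector list does the opposite, and the interferon gamma response list lies right of 0 at day 7 in both sets (0.17 and 0.86).

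At day 7, more genes were higher than lower. Of 3101 genes that reached the level limit, 61 (1.97%) were past 2-fold higher and 13 (0.419%) past 2-fold lower, against a median log2 ratio over all genes of 0.05. With the level limit on the mean of the 3 libraries, 39 were higher. Of the 61, 6 were past 2-fold in both Xist cells and Y cells, 32 kept the sign but were under 2-fold in one of these sets, and 23 had the opposite sign in one of them. The 6 were Gbp2, Marcksl1, Nfkb2, Odc1, Stx11 and Tnfrsf25. They also stayed past 2-fold without the members rich in class II or hemoglobin and without the member with the most UMIs of the gene. Of these, Tnfrsf25, which encodes a death receptor of the TNF receptor family that costimulates T cells, was outside the rule for named genes and was singled out after its values were seen.

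Odc1, on chr12:17544794-17551505 of mm10 (plus strand), encodes ornithine decarboxylase, the first enzyme of polyamine synthesis. It stood at 147, 113 and 581 CPM and was detected in 51, 38 and 82 members, a log2 ratio at day 7 of 1.91 (interval 1.64 to 2.18), with 1.02 in Xist cells and 1.92 in Y cells. PBS and day 3 lay close together and day 7 stood apart. Hif1a (chr12:73901375-73947530, plus strand), the oxygen-regulated subunit of hypoxia-inducible factor, was at 188, 164 and 607 CPM in 71, 59 and 103 members, with a log2 ratio of 1.64 (1.40 to 1.89), 0.29 in Xist cells and 1.62 in Y cells. The next day 7 gene, Serpinb9 (chr13:33003250-33017957, plus strand), encodes an inhibitor of granzyme B. Its level was 22.7, 41.3 and 190 CPM in 17, 22 and 51 members, a log2 ratio of 0.65 at day 3 and 2.61 at day 7 (2.10 to 3.12), with 0.71 in Xist cells and 2.71 in Y cells at day 7. Mxd1, a partner of Max that competes with Myc, was at 59.8, 54.7 and 221 CPM in 31, 28 and 69 members, with 0.90 in Xist cells and 1.60 in Y cells.

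Several genes at lower levels also stood highest at day 7. Stx11, a syntaxin of cytotoxic granule release, stood at 11.97, 26.8 and 78.3 CPM in 10, 14 and 39 members, with a log2 ratio at day 7 of 2.01 (1.46 in Xist cells and 1.78 in Y cells). Nfkb2, the precursor of the non-canonical NF-κB subunit p52, stood at 19.2, 34.6 and 81.2 CPM (1.65, with 1.15 and 2.04). Marcksl1, an actin-binding substrate of protein kinase C, was at 16.8, 40.2 and 75.4 CPM (1.67, with 1.75 and 2.01). All 3 were intermediate at day 3. Lilr4b, a leukocyte receptor gene, was at 34.7, 27.9 and 135 CPM in 12, 17 and 48 members, and Bcl2l11, which encodes the pro-apoptotic protein BIM, at 28.7, 39.1 and 108 CPM in 19, 27 and 42 members. Their ratios at day 7 in Xist cells were 0.74 and 0.09, and in Y cells 1.39 and 1.52. Il1r2, the decoy receptor for interleukin 1, was at 4.8, 2.2 and 57.0 CPM but was found in 4, 2 and 7 members only.

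**Figure D4:**
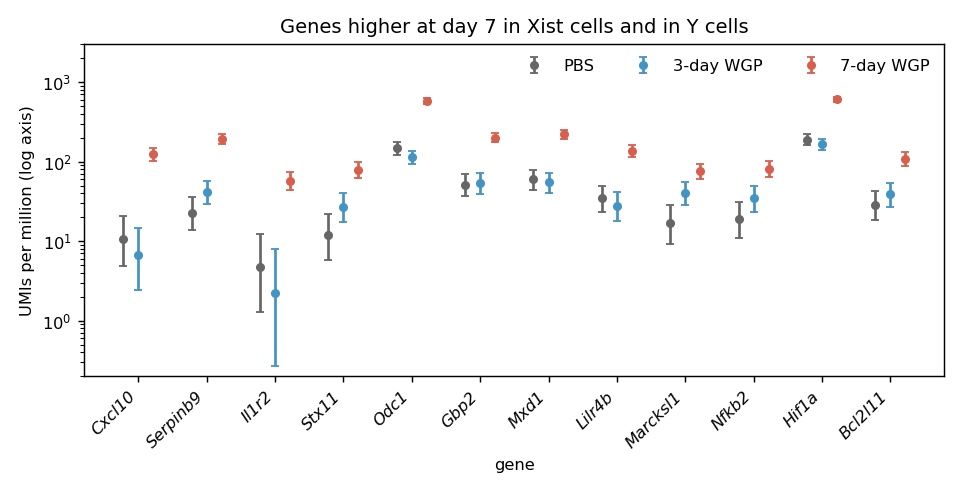
Level of 12 genes in CPM (log axis) in conventional CD4 T cells of each library, with bars for exact Poisson 95% intervals; they are the named genes with the highest day 7 ratios among those with the same sign in Xist cells and in Y cells. Each gene stood highest in 7-day WGP, as in Odc1 at 581 against 147 and 113 CPM, and PBS and 3-day WGP intervals overlap for most genes.

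Genes induced by interferon gamma were higher at day 7. The limit of 50 CPM can be met through the WGP library alone, so the list was read over the 16 genes with a mean of 50 CPM or more over the 3 libraries, the same genes at both times. At day 7 all 16 had a ratio above 0, 13 of them with an interval above 0, and the median log2 ratio was 0.52, against -0.14 at day 3. Over all genes at the level limit the medians were 0.05 at day 7 and -0.04 at day 3. In Y cells 15 of the 16 were above 0 (median 0.88), and in Xist cells 9 of the 16 (median 0.17). Over the 19 genes at 50 CPM in PBS or 7-day WGP the median was 0.56, but 4 of these 19, Gbp3 and Cxcl10 among them, were below 50 CPM in PBS and entered only through 7-day WGP. Without the members rich in class II or hemoglobin the median was 0.60 over 18 genes.

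Gbp2 (chr3:142620602-142638008, plus strand), an interferon-induced GTPase of cell-autonomous defence, stood at 51.5, 53.6 and 200 CPM and was detected in 27, 29 and 65 members. Its log2 ratio was 0.05 at day 3 and 1.77 at day 7 (1.36 to 2.20), with 1.11 in Xist cells and 2.42 in Y cells. B cells of the same libraries had 26.1 CPM of Gbp2 in PBS and 112 CPM at day 7, so the higher level was not limited to members. At 1000 UMIs per cell, Gbp2 was detected in 2.22, 5.0 and 12.9% of members and in 2.00, 2.05 and 9.98% of B cells. Gbp3 (chr3:142560026-142573209, plus strand), a paralog next to it, was at 18.0, 16.8 and 62.8 CPM in 12, 11 and 34 members, with a log2 ratio of 1.38 at day 7 (0.79 to 1.95), 1.01 in Xist cells and 0.53 in Y cells. Irf1 (chr11:53770014-53778374, plus strand), the transcription factor that acts early after interferon gamma, was at 76.6, 74.8 and 169 CPM in 37, 40 and 73 members, with a ratio of 1.05 (0.67 to 1.43), 0.83 in Xist cells and 1.27 in Y cells. Reads shared between the Gbp paralogs are uncertain in 3' counting. Ly6a, a surface protein raised by interferons, was at 602, 547 and 1191 CPM, with ratios at day 7 of -0.30 in Xist cells and 1.25 in Y cells.

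The chemokine genes of the list were carried by few cells. Cxcl10 (chr5:92346638-92348889, minus strand), a ligand of CXCR3, was at 10.8, 6.7 and 123 CPM in 6, 3 and 10 members, and its log2 ratio at day 7 went from 2.68 to 1.29 without the members rich in class II or hemoglobin. Cxcl9, another CXCR3 ligand, had no UMI in PBS or 3-day WGP and 43.5 CPM in 7-day WGP, at least 12.1-fold higher against a floor of 3 UMIs per library, but 84.4% of its UMIs came from 1 member. These are genes that macrophages and dendritic cells also make.

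The promoters of Gbp2, Gbp3, Irf1 and Cxcl10, the 4 genes of the list past 2-fold, are shown with the letters of the motifs that interferon-activated factors bind, matches in capitals. Each is the 250 bases before the start of the RefSeq entry on GRCm38.p6, 5' to 3' on the gene's strand. The gene spans printed above are those of Gencode, which starts Gbp2 and Gbp3 further upstream, so the ends of these windows, and the match in Gbp2, lie inside those spans. The spans are chr3:142620413-142620662 (plus) for Gbp2, chr3:142559794-142560043 (plus) for Gbp3, chr11:53769764-53770013 (plus) for Irf1 and chr5:92348890-92349139 (minus) for Cxcl10.
Gbp2: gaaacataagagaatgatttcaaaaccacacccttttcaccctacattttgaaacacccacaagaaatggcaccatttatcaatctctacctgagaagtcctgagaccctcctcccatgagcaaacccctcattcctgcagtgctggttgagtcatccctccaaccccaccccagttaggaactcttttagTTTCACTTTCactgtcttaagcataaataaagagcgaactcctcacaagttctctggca
Gbp3: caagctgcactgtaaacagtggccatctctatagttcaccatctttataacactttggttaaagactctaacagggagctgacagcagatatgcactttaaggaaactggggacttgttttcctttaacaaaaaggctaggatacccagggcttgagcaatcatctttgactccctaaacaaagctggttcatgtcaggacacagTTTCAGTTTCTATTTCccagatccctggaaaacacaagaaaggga
Irf1: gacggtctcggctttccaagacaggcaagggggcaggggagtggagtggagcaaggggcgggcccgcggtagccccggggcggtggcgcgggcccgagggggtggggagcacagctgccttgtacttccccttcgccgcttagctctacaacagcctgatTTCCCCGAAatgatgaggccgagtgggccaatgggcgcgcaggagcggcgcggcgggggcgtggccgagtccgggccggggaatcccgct
Cxcl10: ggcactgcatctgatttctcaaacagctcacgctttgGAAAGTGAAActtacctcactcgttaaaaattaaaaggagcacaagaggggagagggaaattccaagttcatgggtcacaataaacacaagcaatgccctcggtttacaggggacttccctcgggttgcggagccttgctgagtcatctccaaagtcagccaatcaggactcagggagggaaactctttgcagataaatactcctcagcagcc
Both motifs were searched on both strands. The core of the interferon-stimulated response element, GAAA and again GAAA with any 2 bases between them, had 1 match in Gbp2, 2 overlapping matches in Gbp3 and 1 match in Cxcl10, and TTCNNNGAA, the gamma-activated site, which reads the same on both strands, had 1 match in Irf1. Of the 19 genes of the list, 14 had a promoter in the table, and of these 7 (50%) held the first motif and 4 (28.6%) the second, against 2.98% (978) and 7.02% (2306) of all 32851 promoters in it. The list was made of genes known to respond to interferon gamma, so these shares describe the list and say nothing about the members. A match describes the letters of this window and is no evidence that a factor was bound.

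Th1 genes were higher at day 7 in Y cells and lower in Xist cells. The median of 13 genes was 0.69 at day 7, with 1.004 in Y cells and -0.63 in Xist cells, and -0.32 over 11 genes at day 3. Over the 12 genes with a mean of 50 CPM or more it was 0.66 at day 7, with 0.999 in Y cells and -0.67 in Xist cells, and -0.26 at day 3. Ifng (chr10:118441046-118445892, plus strand), which encodes interferon gamma itself, stood at 87.4, 106 and 287 CPM and was detected in 23, 20 and 41 members. Its log2 ratio at day 7 was 1.61 (1.27 to 1.959), with 1.90 in Y cells and -0.72 in Xist cells, and at an equal depth of 1000 UMIs it was found in 7.41, 7.14 and 9.29% of members. A single member held 36, 52 and 13% of the Ifng UMIs. Hopx, a cofactor of persisting Th1 cells, was at 153, 121 and 343 CPM, and Bhlhe40, a transcription factor needed for cytokine production, at 100, 70.4 and 314 CPM. Bhlhe40 was above PBS in both sets, with 0.41 and 1.02, and Hopx only in Y cells, with -0.48 and 1.17. Il18rap, a subunit of the interleukin 18 receptor, was at 22.7, 25.7 and 70.6 CPM. Tbx21, the master regulator of Th1 cells, differed little at 26.3, 21.2 and 23.2 CPM, and Cxcr3, the chemokine receptor it induces, was lower at 187, 129 and 130 CPM (log2 ratios -0.51 and -0.50). In Xist cells the Cxcr3 ratios were -1.42 and -1.41, and in Y cells 0.68 and 0.37.

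Genes of tissue residence and retention behaved in the same way. Cxcr6, a receptor of tissue-resident T cells, stood at 117, 106 and 314 CPM in 31, 39 and 56 members, with a log2 ratio at day 7 of 1.35, 2.43 in Y cells and -0.82 in Xist cells. Xcl1, a chemokine for cross-presenting dendritic cells, was at 43.1, 42.4 and 169 CPM but was found in 13 members at day 7. Rora, a nuclear receptor shared by Th17 and tissue helper cells, was at 55.1, 84.9 and 182 CPM (1.56, with -0.26 in Xist cells and 2.42 in Y cells). The residence list as a whole had a median of 0.53 at day 7 over 9 genes, with -0.51 in Xist cells and 0.28 in Y cells, and of 0.45 over the 7 genes with a mean of 50 CPM or more.

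Activation genes were mixed at day 7, and several costimulatory receptors stood higher. Over the 16 activation and immediate early genes with a mean of 50 CPM or more, 9 were above 0 at day 7, 8 with an interval above 0 and 3 with one below 0, and the median was 0.29 (-0.01 in Xist cells and 0.27 in Y cells), against -0.27 at day 3. Tnfrsf4 and Dusp2 were past 2-fold higher and Fosb past 2-fold lower among them. Over the 7 checkpoint and costimulation genes chosen in the same way, 6 were above 0 at day 7, with a median of 0.85, but the median was -0.12 in Xist cells (2 of 7 above 0) and 0.72 in Y cells (6 of 7). Tnfrsf4 encodes the costimulatory receptor OX40 and stood at 132, 96.1 and 339 CPM, with ratios at day 7 of 0.56 in Xist cells and 1.48 in Y cells. Icos, the inducible costimulator, was at 151, 190 and 317 CPM, and Ctla4, the inhibitory receptor that binds the same ligands as CD28, at 79.0, 79.3 and 193 CPM. For Ctla4 both sets were above PBS at day 7 (0.33 and 0.72), and for Icos only the Y cells (-0.09 and 0.69). Il2ra, the α chain of the high-affinity interleukin 2 receptor, was at 21.5, 4.5 and 57.0 CPM in 7, 4 and 22 members, and so passed the limit of 50 CPM only through 7-day WGP. Tnfrsf18, which encodes GITR, was at 133, 112 and 247 CPM, and Tnfrsf9, which encodes 4-1BB, at 31.1, 12.3 and 64.8 CPM. Their day 7 ratios in Xist cells and then Y cells were -0.13 and 1.34 for Tnfrsf18 and 2.07 and 1.36 for Tnfrsf9. Foxp3 can go undetected in a regulatory T cell, so a list of regulatory T cell genes was also read. Over its 6 genes with a mean of 50 CPM or more, 6 were above 0 at day 7 and 3 were past 2-fold (Ctla4, Tnfrsf4 and Icos), where 1.97% of all genes were. The median was 0.94, with -0.10 in Xist cells (2 of 6 above 0) and 1.32 in Y cells (6 of 6), and the share of Foxp3-positive cells also went from 4.26 to 20% of CD4 T cells. The part that undetected Foxp3 cells have in these values was not tested.

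Cytokine receptors had a median log2 ratio of 0.40 at day 7 over 15 genes, with 0.25 in Xist cells and 0.36 in Y cells, and of 0.34 over the 13 genes with a mean of 50 CPM or more. Ifngr1, the ligand-binding chain of the interferon gamma receptor, stood at 190, 225 and 542 CPM, a ratio of 1.46, with 0.32 in Xist cells and 1.29 in Y cells. Il4ra, the receptor chain for interleukins 4 and 13, was at 28.7, 62.6 and 60.9 CPM, higher than PBS at both times by under 2-fold (0.91 and 0.87). All 10 glycolysis genes were above 0 at day 7, with a median of 0.42, but the median was -0.37 in Xist cells and 1.13 in Y cells. Aldoa, an aldolase, stood at 251, 287 and 551 CPM and was above PBS in both (0.81 and 1.10).

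The day 7 genes were read within effector-rich and naive-rich members, leaving out those rich in class II or hemoglobin. Among cells with more effector UMIs (72, 66 and 84 cells), Hif1a stood at 222, 239 and 831 CPM, Odc1 at 193, 175 and 793 CPM, and Serpinb9 at 28.7, 64.1 and 304 CPM. They held more Xist cells than Y cells in PBS (34 and 17) and fewer at day 7 (13 and 49), so the pooled values set different animals beside each other. Within the Xist cells that were effector-rich (34, 13 and 13 cells), the day 7 log2 ratios were 1.04 for Hif1a, 1.98 for Odc1, 1.45 for Serpinb9, 1.77 for Gbp2, 1.46 for Mxd1 and 1.26 for Irf1. Within the Y cells that were effector-rich (17, 23 and 49 cells), they were 1.59, 1.56, 2.74, 3.14, 1.46 and 2.21. All 6 genes were higher at day 7 in effector-rich cells of both sets, but this was largely set by the choice of genes. Hif1a, Odc1, Serpinb9, Gbp2 and Mxd1 were picked from these same members for high day 7 ratios of the same sign in both sets. Irf1 was named as past 2-fold at day 7. In the effector-rich Xist cells, Serpinb9 rested on 7, 1 and 6 UMIs and Mxd1 on 10, 3 and 8 UMIs. Ifng stood at 129, 209 and 435 CPM in effector-rich cells, with ratios at day 7 of 0.48 in Xist cells and 1.41 in Y cells, and at 10.2, 2.83 and 4.08 CPM in naive-rich cells.

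Among cells with more naive UMIs (50, 58 and 45 cells), Odc1 stood at 97.2, 50.9 and 93.7 CPM, Serpinb9 at 15.4, 17.0 and 16.3 CPM, Hif1a at 138, 102 and 212 CPM, Gbp2 at 51.2, 28.3 and 147 CPM, and Irf1 at 61.4, 87.6 and 130 CPM. The values within the sets differed from these. In naive-rich Xist cells (11, 30 and 24 cells), Gbp2 stood at 106, 18.8 and 82.3 CPM, from 7, 4 and 12 UMIs, and in naive-rich Y cells (23, 10 and 7 cells) at 41.3, 39.1 and 360 CPM, from 3, 2 and 12 UMIs. Odc1 had a day 7 ratio of -0.11 in naive-rich Xist cells and 1.54 in naive-rich Y cells, and Mxd1 of 0.13 and 3.02. No difference between the states or the sets was tested, and the naive-rich Y cells of day 7 were only 7 cells.

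**Figure D5:**
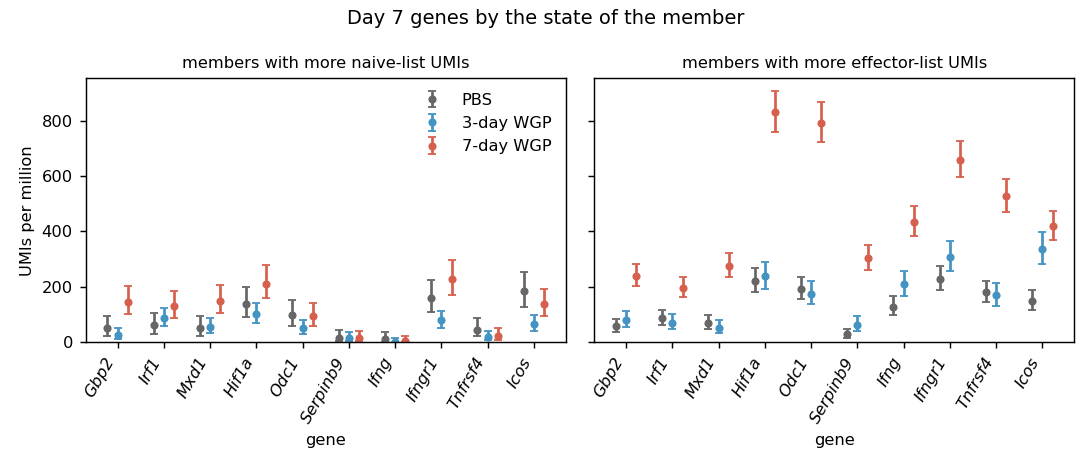
Level of 10 genes in CPM (y axis) in members with more naive-list UMIs (left) and more effector-list UMIs (right), without members rich in class II or hemoglobin, for the 3 libraries; bars are exact Poisson 95% intervals. Hif1a, Odc1 and Serpinb9 reach 831, 793 and 304 in effector-rich cells at day 7, and Gbp2 stands highest at day 7 in both kinds of cell (241 and 147) when Xist cells and Y cells are pooled.

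Few genes were lower at day 7, and Fosb was lower at both times. Fosb (chr7:19302696-19310051, minus strand), an immediate early gene of the AP-1 family, stood at 245, 61.4 and 59.9 CPM and was detected in 52, 29 and 32 members. Its log2 ratio was -1.84 at day 3 (-2.23 to -1.45) and -1.87 at day 7 (-2.24 to -1.50). Both sets of cells showed it, with -2.67 in Xist cells and -1.78 in Y cells at day 3 and -1.77 and -1.89 at day 7. In CD8 T cells of the same libraries Fosb stood at 163, 72.8 and 38.9 CPM. Junb, of the same family, was at 1162, 607 and 1149 CPM, with ratios of -1.18 in Xist cells and -0.74 in Y cells at day 3 and of -0.80 and 0.06 at day 7. Atf3, a stress-induced factor, was at 57.5, 13.4 and 29.0 CPM in 8, 7 and 7 members. Areg, which encodes the repair factor amphiregulin, was at 106, 7.8 and 2.9 CPM, but 65.2% of its PBS UMIs came from 1 of 8 members. Fam168a was at 51.5, 32.4 and 14.5 CPM (log2 ratio at day 7 of -1.33). H2-Eb1, a class II gene, was at 869, 591 and 421 CPM, and its log2 ratio at day 7 turned from -1.03 to 0.54 without the members rich in class II or hemoglobin.

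At day 3, fewer genes differed. Of 3011 genes that reached the level limit, 17 (0.565%) were past 2-fold higher and 18 (0.598%) past 2-fold lower, and with the level limit on the mean of the 3 libraries 9 were lower. In both Xist cells and Y cells, 4 of the 17 and 6 of the 18 were past 2-fold. Hist1h2ae, Hist1h2ap, Saa3 and Ski were higher, and Areg, Atf3, Ccl5, Fosb and the unnamed gene Gm20186 lower, by 2-fold or more there and also without the members rich in class II or hemoglobin and without the top member of the gene. Saa3 and Gm20186 were outside the rule for named genes and were singled out after their values were seen. Gm20186 was left out by its name. Saa3 was left out by the free RNA limit, being under 4 times the level that 2% free RNA would give. Free RNA was 0.861% of the members' UMIs in PBS and 1.73% in 3-day WGP, and its part in the level of Saa3 was not tested. Ski (chr4:155154075-155222592, minus strand), a repressor of TGF-β signalling, stood at 31.1, 88.2 and 58.0 CPM in 21, 56 and 45 members, a log2 ratio of 1.26 at day 3 (0.73 to 1.78), with 1.30 in Xist cells and 1.15 in Y cells. It was found in more members at day 3 than in either of the other libraries.

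Genes of cell division stood among the highest ratios at day 3 that had the same sign in both sets, and most came from few cells. The 17 past 2-fold also held hemoglobin (Hba-a1, Hba-a2 and Hbb-bs) and immunoglobulin (Ighm, Igkc and Jchain) transcripts. Hist1h2ap, a replication-dependent histone, was at 25.1, 87.1 and 13.5 CPM in 4, 10 and 3 members, and Hist1h2ae at 28.7, 74.8 and 21.3 CPM. Cdca8, a chromosome passenger protein, was at 37.1, 98.3 and 30.9 CPM, and Hmmr, a spindle-associated hyaluronan receptor, at 18.0, 52.5 and 26.1 CPM. Of 16 cell cycle genes, 13 were above 0 and 0 past 2-fold at day 3, with a median of 0.61, 0.24 in Xist cells and 2.07 in Y cells. At an equal depth of 1000 UMIs, Mki67 or Top2a was found in 6.67, 10.0 and 5.71% of members, against 2.40, 5.64 and 1.92% of B cells. At day 7 the cell cycle median was -0.18, with -2.84 in Xist cells and 1.17 in Y cells. Without the members rich in class II or hemoglobin it was -0.84, with 6 of 14 genes past 2-fold lower against 1 of 13 with them. Stmn1, a tubulin regulator of dividing cells, stood at 257, 406 and 118 CPM.

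Type I interferon genes were lower at day 3. Of the 11 genes of the list with a mean of 50 CPM or more over the 3 libraries, 0 had a ratio above 0 at day 3 and 7 had an interval below 0. The median log2 ratio was -0.45, where it was -0.04 over all genes at the level limit. In the listed genes it was -0.38 in Xist cells (2 genes above 0) and -0.15 in Y cells (1 gene above 0). At day 7 the median of these genes was 0.18, with 6 above 0, 0.039 in Xist cells and 0.46 in Y cells. Over the 15 genes at 50 CPM in PBS or 3-day WGP the day 3 median was -0.53, but 5 of these were below 50 CPM at day 3 and passed through PBS alone. Isg15 (chr4:156199424-156200818, minus strand), a ubiquitin-like modifier, stood at 94.6, 40.2 and 82.2 CPM, with a log2 ratio of -1.06 at day 3 and -0.18 at day 7. Rtp4 was at 59.8, 20.1 and 49.3 CPM, and Isg20, an exonuclease, at 57.5, 23.5 and 56.1 CPM, and these 3 genes are among the 5. Ifi27l2a, the most abundant of those named here, was at 1320, 772 and 1307 CPM (log2 ratio of -0.77 at day 3, with -1.05 in Xist cells and 0.09 in Y cells). In all members, each of these 4 genes was lowest at day 3, and its day 7 level was nearer to PBS than to day 3.

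Nrp1 and Klrd1 were also past 2-fold lower at day 3. Nrp1, a coreceptor seen on regulatory and recently activated T cells, stood at 64.6, 22.3 and 56.1 CPM, and Klrd1, which encodes CD94, at 79.0, 29.0 and 62.8 CPM. Klrd1 had a ratio of 0.023 in Y cells, so its lower level was not shared by both sets. Without the members rich in class II or hemoglobin it stood at 37.7, 18.8 and 35.9 CPM, below the level limit.

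Genes of helper fates were detected in a minority of members at equal depth. After thinning to 1000 UMIs, Tbx21, Ifng or Cxcr3 was detected in 21.5, 17.1 and 25% of members (0.629, 0.923 and 0.576% of B cells), and Gata3, Il4, Il5 or Il13 in 11.9, 6.43 and 7.14% (0.571, 0.103 and 0% of B cells). Without thinning these shares were 43.0, 39.3 and 55.7% for the first set (2.8, 4.41 and 4.41% of B cells) and 33.3, 39.3 and 40% for the second (1.26, 1.23 and 0.384% of B cells). Gata3, the Th2 master regulator, stood at 124, 103 and 90.9 CPM. Bcl6, Cxcr5 or Il21, markers of follicular helper cells, was found in 2.22, 3.57 and 2.86% of members, below the share in B cells (11.4, 8.21 and 10.9%), which use Bcl6 and Cxcr5 themselves. Among cytokine genes, and without thinning, Il2 had a UMI in 20, 14 and 10 members, Tnf in 11, 13 and 20, Il21 in 3, 1 and 7, Il4 in 1, 4 and 1, Il17a in 0, 0 and 1, and Il10 in 0, 1 and 0.

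Variable segments of the T cell receptor were read in few members by 3' sequencing. A single Trbv segment was assigned to 20, 12 and 22 members, over 12, 9 and 9 different segments, with Trbv3 (4 members), Trbv15 (3) and Trbv2 (6) the most frequent segment of each library. A single Trav segment was assigned to 28, 24 and 24 members, over 20, 13 and 16 different segments. Trav11 and Trav11d, the α chain segments of invariant natural killer T cells, had no UMI in any member. Zbtb16 or Klrb1c, read as other markers of innate-like T cells, had a UMI in 4, 3 and 4 members.

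The day 7 genes can be set beside the other T cells of the same libraries, although with 1 library per group no difference between cell types could be tested. In CD8 T cells, Serpinb9 stood at 40.6, 46.3 and 169 CPM, Gbp2 at 43.8, 47.0 and 142 CPM, and Ifng at 50.01, 47.0 and 479 CPM. Hif1a was at 73.4, 81.1 and 152 CPM, and Odc1 at 64.1, 81.1 and 131 CPM in CD8 T cells, against 607 and 581 CPM at day 7 in the members. Tnfrsf4 was at 3.13, 3.03 and 51.4 CPM in CD8 T cells. All of these genes, Hif1a, Odc1 and Tnfrsf4 included, were highest at day 7 in both kinds of T cell. In the 35 regulatory T cells at day 7, Odc1 was at 1382 CPM and Tnfrsf4 at 1512 CPM.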

How the data were processed

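The files hold raw counts of UMIs per gene and barcode for 3 libraries of sorted live CD45+ cells, deposited by the authors as count matrices with no normalization. Per the submitters' processing notes, the authors used Cell Ranger 3.1.0 with the mm10 genome, and Seurat. Here, barcodes with at least 1000 UMIs and at most 30% mitochondrial UMIs were kept, and members were chosen by the transcript rule given above. No doublets were removed in the values given: Scrublet marked 0, 3 and 5 barcodes automatically, and removing its highest scores at 0.8% per 1000 barcodes was an alternative. The members and gene lists were chosen with earlier results of these data known.

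Counts were summed over members and scaled to the summed total, and log2 ratios used a pseudocount of 10 CPM. Named genes were the members of 18 programme lists at 50 CPM in at least 1 library or detected in 5% of members of a library, and for each WGP library the 12 highest and 12 lowest ratios with the same sign in Xist cells and Y cells, at 4 times or more the level that 2% free RNA would give, without mitochondrial, ribosomal, immunoglobulin, receptor variable, hemoglobin, sex-linked or unnamed genes. Another 14 lists held markers of other cell types. Of the lists not described above, summed levels in PBS, 3-day WGP and 7-day WGP were 68.2, 57.0 and 61.9 CPM for natural killer, 37.1, 31.3 and 19.3 CPM for γδ T cell, 330, 126 and 188 CPM for innate lymphoid, 107, 256 and 122 CPM for plasma cell, 7.18, 17.9 and 10.6 CPM for neutrophil, 85.0, 1311 and 27.1 CPM for erythroid (39.1, 37.6 and 31.3 CPM without the members rich in class II or hemoglobin), 120, 131 and 189 CPM for acinar, 2.39, 0 and 0.967 CPM for islet, 62.2, 63.7 and 74.4 CPM for endothelial and 51.5, 25.7 and 27.1 CPM for fibroblast markers, and CD8 markers were at 0 by the rule. Median log2 ratios at day 3 and day 7 of lists not given above were -0.19 and -0.27 for Th2, 0.48 and 0.55 for Th17, -0.11 and -0.31 for follicular helper (0.19 at day 7 without the members rich in class II or hemoglobin), -0.06 and 0.59 for checkpoint, -0.03 and 0.05 for chemokine and -0.95 and 0.32 for innate-like genes.

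Intervals were exact Poisson for levels, exact Clopper-Pearson for shares and Katz for ratios of shares, at 95%. They cover counting error only, since each group was 1 library, and no p-value was computed. Alternatives were other UMI and mitochondrial limits, a 40% ribosomal limit, a stricter rule (Cd3 genes at least 3, Cd4 at least 2), pseudocounts of 1 and 50 CPM, no level limit, TMM factors, means over cells, free RNA subtraction, and members of either sex or without other-lineage transcripts. For the shares, the rule was also applied after thinning each barcode to 1000 UMIs. Leaving out class II- or hemoglobin-rich members or the top member of a gene, relaxing the Cd79a criterion, and a limit of 50 CPM on the mean of the 3 libraries, which gives the same genes at both times, were added after seeing the data. A few genes of the lists are not reported here singly. The code was tested on simulated data. Python 3.11.15, numpy 2.4.6, scipy 1.17.1, scanpy 1.11.5, R 4.3.3 and edgeR 4.0.16 were used.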

Additional observations from a re-analysis of the deposited data

Results flagged for a closer look

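Several results had a large log2 ratio to PBS in Xist cells and one of the opposite sign in Y cells, so that the pooled value describes neither set. The difference between the sets was not tested, since each was read from 1 library per group, and the sets come from different animals. Members rich in class II or hemoglobin are included, and their part in these ratios was not tested. The naive list had medians of 1.05 in Xist cells and -0.52 in Y cells at day 3 and of 0.85 and -1.43 at day 7. The effector list had -1.02 and 0.77 at day 3 and -1.11 and 0.83 at day 7. The Th1 list had -0.63 and 1.004 at day 7, and the cell cycle list had -2.84 and 1.17 at day 7.

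Single genes are given in the same order, Xist cells and then Y cells. At day 3, naive-cell Actn1 had 1.27 and -1.43 and Lef1 had 1.39 and -1.16. The effector genes Anxa2 (-1.20 and 1.61), Id2 (-1.25 and 1.58), Vim (-1.02 and 1.17) and Cxcr6 (-1.002 and 1.14) had the other sign. At day 7, genes of naive or recirculating cells were higher in Xist cells and lower in Y cells: Igfbp4 had 2.20 and -4.06, Ly6c1 1.89 and -2.79, Ccr7 1.45 and -1.94, Lef1 1.15 and -1.88, S1pr1 1.05 and -1.39, and Il6ra 1.04 and -1.81. Effector and cytotoxic genes had the reverse at day 7, with Anxa2 at -2.44 and 1.43, S100a6 at -2.03 and 1.27, S100a11 at -1.58 and 1.06, Lgals1 at -1.35 and 1.07, Nkg7 at -1.18 and 1.004, and Fgl2 at -2.07 and 1.11. So had the dividing-cell genes Mki67 (-4.60 and 1.98), Top2a (-2.99 and 1.76) and Hmgb2 (-1.64 and 1.17), the inhibitory receptor gene Pdcd1 (-1.34 and 1.72), the Helios gene Ikzf2 (-1.75 and 1.46) and the glycolysis gene Tpi1 (-1.47 and 1.78).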

How the results depend on the processing

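No paired analysis was possible because each group had 1 library. The 3-day ratio of shares (0.16) was -0.29 over Cd3-positive barcodes, 1.86 in Xist cells, -0.60 in Y cells and -0.26 without the Cd79a criterion, which also took the 7-day ratio to -0.32. With the rule applied after thinning to 1000 UMIs, the 7-day ratio (0.38) was 0.05. Genes past 2-fold higher at day 3 (17) numbered 31 with a pseudocount of 1 CPM, 10 with 50 CPM, 59 with no level limit, 49 under the stricter rule, 52 without other-lineage transcripts, 62 in Xist cells and 304 in Y cells, and those lower (18) numbered 32, 5, 62, 96, 30, 152 and 128. At day 7, genes higher (61) numbered 27 with 50 CPM, 123 with no limit, 108 without other-lineage transcripts and 303 in Y cells, and genes lower (13) numbered 22 with 1 CPM, 5 with 50 CPM, 44 with no limit, 67 under the stricter rule, 29 without other-lineage transcripts, 187 in Xist cells, 140 in Y cells and 8 without the top member. The naive median at day 3 (0.50) was 0.81 under the stricter rule, 1.01 in Xist cells and -0.57 in Y cells, and at day 7 (-0.32) -0.66, 0.85 and -1.39 without other-lineage transcripts, in Xist cells and in Y cells. The 7-day Th1 median was -0.72 in Xist cells. In Xist cells at day 7, the ratios of Cxcr6 (-0.82), Dapl1 (0.58), Hopx (-0.48), Icos (-0.091), Ifng (-0.72), Il18rap (-0.61), Rora (-0.26) and Xcl1 (-1.40) reversed. In Y cells those of Igfbp4 (-0.30) and Klrd1 (0.023) reversed at day 3 and Stmn1 (0.48) at day 7. H2-Eb1 at day 7 was 0.94 without other-lineage transcripts and 0.54 without members rich in class II or hemoglobin. The cause was not tested. Medians inside one sex use the genes above the limit in that sex, so they can differ from those on the genes of all members. With the level limit on the mean of the 3 libraries, 9 genes were lower at day 3 and 39 higher at day 7. Of 539 alternatives for 30 other list medians, 494 stayed within the counting interval and 45 moved. The sign changed in 55, of which 8 concern medians whose interval leaves out 0: effector at day 3 (0.77 in Y cells), innate-like at day 3 (0.35 in Y cells), Th17 at day 3 (-0.48 in Xist cells and -0.47 under the stricter rule), and, in Xist cells at day 7, checkpoint (-0.12), residence (-0.51), glycolysis (-0.37) and regulatory (-0.12). For 54 single genes 819 of 972 stayed, 140 moved and 13 reversed, and for 24 shares of members with a UMI 57 of 120 stayed and 63 moved. Fewer cells and UMIs per sex limit every value within Xist or Y cells.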
